A study of Mus musculus with 12 samples.

Results

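Interferon-stimulated genes were described here in the gastrocnemius muscle of mice that had received the fecal microbiota of trained or of sedentary donors. The set was a fixed list of 44 genes, and a gene was counted as measured when the array held a transcript cluster annotated with its symbol alone. This held for 40 genes out of the 19938 genes that the array measured in this way. Isg15, Gbp2 and Igtp lay only on transcript clusters that carried several symbols, Ifi44 had no annotated transcript cluster, and these 4 genes were not analysed here.

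The recipients were male Tsl;ICR[GF] mice, germ-free until the first gavage and 11 weeks old per the labels, and all of them ate a high-fat diet in specific-pathogen-free housing. The recipients from trained donors (RT, n = 6) were given feces of treadmill-trained ICR mice, and the recipients from sedentary donors (RS, n = 6) were given feces of untrained ICR mice. Muscle was taken at week 1, and each mouse contributed 1 Affymetrix Mouse Gene 1.0 ST array. Because recipients shared cages and fecal material, donor training cannot be told apart from the particular fecal sample or cage.

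Interferons are secreted signals of antiviral defence. Type I interferons act through the receptor pair Ifnar1 and Ifnar2, interferon gamma acts through Ifngr1 and Ifngr2, and both routes run over Janus kinases to STAT proteins. The type I signal reaches its target genes through the interferon-stimulated response element, to which STAT2 and IRF9 are recruited, and the interferon gamma signal through the gamma-activated site. The genes switched on in this way detect foreign RNA, block the entry or copying of viruses, attack the vacuoles of pathogens or damp the signal itself. Several of them are expressed without added interferon, above all in macrophages, endothelial cells and fibroblasts, which make up a small part of skeletal muscle.

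The values are log2 signals, and a difference of 1 is a doubling of signal. Array medians lay between 4.40 and 4.48 in RT and between 4.46 and 4.63 in RS. The spread of the values over an array, as SD, was smallest on RS-4 (1.98) and RS-6 (1.99) and lay between 2.06 and 2.16 on the other 10 arrays, and these 2 mice also stood apart on the first principal component. The table held no measure of background, so the dimmest genes have no detection call. Signals of different genes come from different probes, so only differences between mice are compared.

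A gene was called when its unadjusted p was under 0.05 and its adjusted p was under 0.1, the thresholds that the methods of the study name. Of the 40 interferon-stimulated genes, 9 (22.5%) rose in RT and 3 (7.5%) fell, which left 28 without a call. Over all 19938 genes, 13.9% were called higher and 10.7% lower. The genes that rose were Ifitm3, Lgals3bp, Ifitm2, Samd9l, Dtx3l, Ifitm1, Ifit2, Trim30a and Ifi27, and the genes that fell were Oasl1, Oas3 and Zbp1. The lowest RT mouse exceeded the highest RS mouse in 4 genes, Ifitm1, Ifitm2, Ifitm3 and Lgals3bp, beside 3.36% of all genes. No interferon-stimulated gene had all RT mice below all RS mice, beside 2.13% of all genes. The median log2 change was 0.12 over the 40 genes and 0.0083 over all genes. The change was above 0 in 26 genes and below 0 in 14.

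The count of calls changed with the mice and with the scaling of the arrays. When RS-4 and RS-6 were left out, 6 genes were called higher and 0 lower. Ifitm1, Ifitm2, Ifitm3, Dtx3l and Lgals3bp kept their call, Usp18 gained one, and the other 7 lost it, with adjusted p between 0.118 and 0.304. With a covariate for array spread, Ifitm1 kept its call, Usp18 gained one, and no other gene passed. Centering each array on its median gave 17 genes higher and 2 lower, and cyclic loess gave 10 higher and 1 lower. Over all 28944 transcript clusters, 3445 were called higher and 3764 lower with the deposited scaling, while centering gave 5883 higher and 2414 lower. The omission of RS-4 and RS-6 reduced these array-wide counts to 1649 rises and 1791 falls, and the covariate for array spread reduced them to 732 rises and 888 falls. No other pair of mice was left out.

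**Figure D1:**
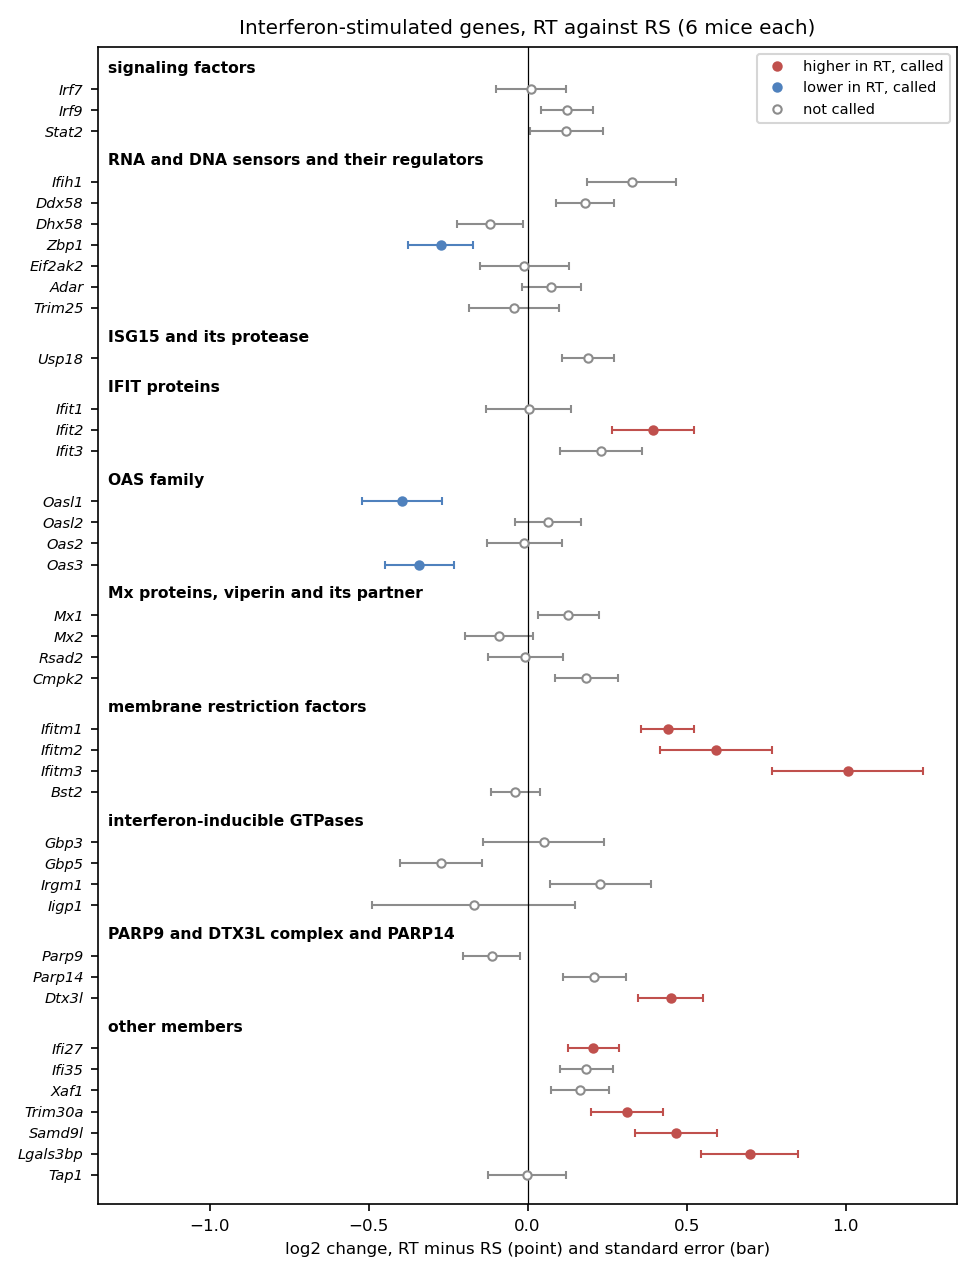
Log2 change (RT minus RS, x axis) of each of the 40 measured interferon-stimulated genes, grouped by role, with the standard error as a bar (6 mice per group). Filled points passed both thresholds, 9 above 0 and 3 below, and the open points lie between −0.27 and 0.33.

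Brightness went along with the share of calls in the array as a whole. Among genes with a mean log2 signal of 6 or more, 29.6% were called higher in RT and 2.53% lower, and all 3 interferon-stimulated genes in this range, Ifitm2, Ifitm3 and Ifi27, were called higher. Between 4 and 6, 5 of 30 interferon-stimulated genes were called higher and 2 lower, beside 14.7% and 13.5% of all genes. Below 4, 1 of 7 was called higher and 1 lower, beside 2.65% and 13.3% of all genes.

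Promoter sequences were read for the IFITM genes, which rose together, for Oas3, which fell, and for Ifit1, a classical interferon target that was not called. Each window runs from 250 bases before to 50 bases after the start of the gene, in RefSeq's GRCm38.p6 assembly. The interferon-stimulated response element was searched as the letters GAAA, any 2 bases and GAAA again, on either strand, and its matches are printed in capitals.
Ifitm3 (chr7:141010695-141010994, minus strand): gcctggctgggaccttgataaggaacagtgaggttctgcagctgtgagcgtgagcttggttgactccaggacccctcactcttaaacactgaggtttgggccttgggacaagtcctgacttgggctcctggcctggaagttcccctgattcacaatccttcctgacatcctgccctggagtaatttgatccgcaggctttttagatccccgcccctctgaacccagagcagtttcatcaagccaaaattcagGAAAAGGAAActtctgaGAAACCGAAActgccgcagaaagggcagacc
Ifitm2 (chr7:140955912-140956211, minus strand): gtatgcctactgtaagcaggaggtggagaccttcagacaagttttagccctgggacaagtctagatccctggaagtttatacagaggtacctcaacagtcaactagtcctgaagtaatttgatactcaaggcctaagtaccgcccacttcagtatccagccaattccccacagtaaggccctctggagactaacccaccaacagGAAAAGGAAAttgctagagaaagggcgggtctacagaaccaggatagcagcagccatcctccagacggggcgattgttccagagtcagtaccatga
Ifitm1 (chr7:140967826-140968125, plus strand): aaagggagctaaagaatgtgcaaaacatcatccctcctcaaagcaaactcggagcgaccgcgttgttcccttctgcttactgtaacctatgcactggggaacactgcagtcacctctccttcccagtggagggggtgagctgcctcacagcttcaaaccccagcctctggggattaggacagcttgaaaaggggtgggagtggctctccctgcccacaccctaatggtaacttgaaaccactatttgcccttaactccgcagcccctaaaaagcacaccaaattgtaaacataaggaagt
Oas3 (chr5:120777610-120777909, minus strand): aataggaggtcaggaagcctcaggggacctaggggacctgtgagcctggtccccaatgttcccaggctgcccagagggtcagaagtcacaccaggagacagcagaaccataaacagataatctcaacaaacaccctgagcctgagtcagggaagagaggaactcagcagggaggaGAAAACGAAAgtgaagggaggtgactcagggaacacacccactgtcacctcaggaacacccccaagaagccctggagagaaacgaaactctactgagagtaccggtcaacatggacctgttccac
Ifit1 (chr19:34640639-34640938, plus strand): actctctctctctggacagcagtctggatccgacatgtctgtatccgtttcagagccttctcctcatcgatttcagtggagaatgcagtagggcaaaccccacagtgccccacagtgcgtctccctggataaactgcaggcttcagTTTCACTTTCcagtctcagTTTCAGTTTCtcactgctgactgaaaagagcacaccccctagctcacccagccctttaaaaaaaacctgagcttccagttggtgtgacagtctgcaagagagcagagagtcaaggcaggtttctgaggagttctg
The Ifitm3 and Ifit1 windows hold the element 2 times each, those of Ifitm2 and Oas3 hold it 1 time, and the Ifitm1 window does not hold these letters.

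A promoter window was given for 30 of the 40 genes, and 15 of them held the element, beside 3.99% of 27025 genes with a window. It was present in 3 of 8 genes called higher, Ifitm2, Ifitm3 and Trim30a, in 1 of 2 called lower, Oas3, and in 11 of 20 that were not called. The gamma-activated site, searched as TTC, any 3 bases and GAA, was present in 7 of the 30 windows (23.3%), beside 9.55% of all genes. In the Ifitm3 window its letters overlap those of the response element. Genes with and without the element were thus found among those that rose and among those that did not pass.

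The membrane proteins held the greatest share of calls, with 3 of 4 genes higher. The IFITM proteins sit in the cell and endosome membrane and hinder the fusion of enveloped viruses. Ifitm3 ranged from 7.94 to 8.42 in RT, with a median of 8.17, and from 6.00 to 7.79 in RS, with a median of 7.37. The groups did not overlap, and RS-4 (6.62) and RS-6 (6.00) were far below the other RS mice. The log2 change of 1.01 ± 0.24 (SE) corresponds to 2.01 times the RS signal, with an adjusted p of 0.0123. Without RS-4 and RS-6 the change was 0.59, with an adjusted p of 0.0142, and with the covariate for array spread it was 0.45, with an adjusted p of 0.161, which ended the call.

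Ifitm2 encodes a close relative that acts in late endosomes. Its signal ranged from 7.88 to 8.18 in RT, with a median of 7.98, and from 6.57 to 7.79 in RS, with a median of 7.63. The change was 0.59 ± 0.18 (adjusted p = 0.0341), and it was 0.28 (adjusted p = 0.0603) without RS-4 and RS-6 and 0.23 (adjusted p = 0.449) with the covariate for array spread. RS-4 (6.95) and RS-6 (6.57) were again the lowest mice. A further 2 transcript clusters of Ifitm2 changed by 0.74 and 0.80, with adjusted p of 0.0163 and 0.0146, and in both of them all RT mice lay above all RS mice. Ifitm2 and Ifitm3 are related genes, and whether their probes tell the transcripts apart was not checked, so the values of these genes are uncertain in this respect.

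Ifitm1 encodes the family member of the cell surface. It ranged from 5.00 to 5.30 in RT, with a median of 5.20, and from 4.51 to 4.88 in RS, with a median of 4.79. The groups were separate, and both were narrow, with SDs of 0.11 in RT and 0.14 in RS. The change of 0.44 ± 0.084 had an adjusted p of 0.00412, the smallest among the 40 genes, and the call held under each of 24 alternatives of processing, test and mice. A second, dimmer transcript cluster of Ifitm1 changed by 0.17 (adjusted p = 0.375). Bst2, which encodes tetherin and holds budding virus at the cell surface, ranged from 5.22 to 5.37 in RT and from 5.13 to 5.49 in RS, with a change of −0.04 ± 0.076 (adjusted p = 0.756).

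**Figure D2:**
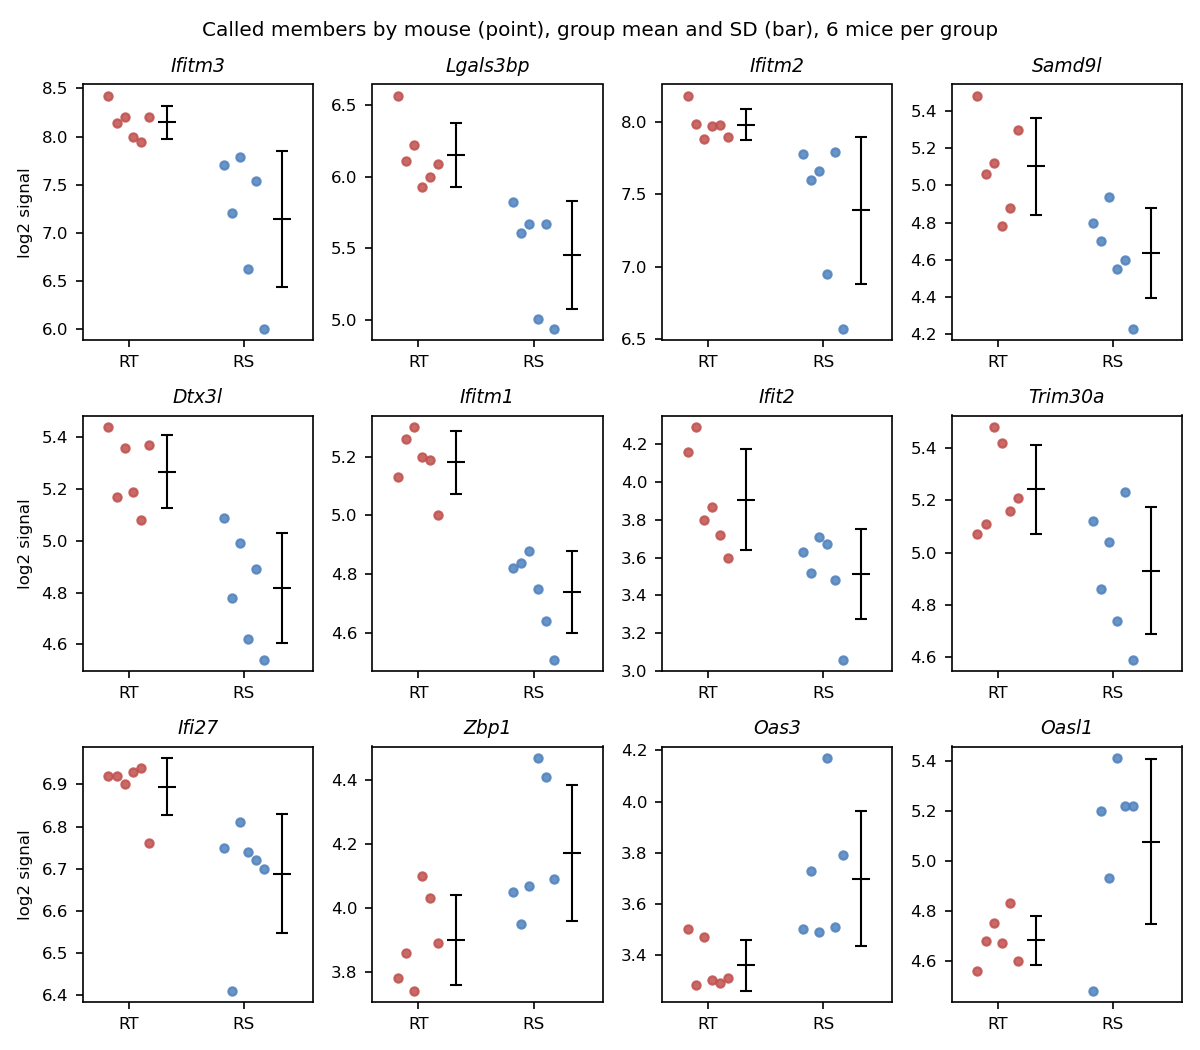
Log2 signal (y axis, own scale in each panel) of the 12 called interferon-stimulated genes in each mouse of RT and RS, with points in each group in order of mouse number and a bar for the mean and SD (n = 6). Ifitm3, Lgals3bp, Ifitm2 and Ifitm1 show no overlap of the groups, and the last RS point, RS-6, is the lowest of the 12 mice in 8 of the 9 genes that rose.

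Among the IFIT genes, whose proteins bind foreign RNA, 1 of 3 was called. Ifit2 ranged from 3.60 to 4.29 in RT, with a median of 3.84, and from 3.06 to 3.71 in RS, with a median of 3.58. All RT mice but RT-6 lay above every RS mouse, and RS-6 was far below the other RS mice. The change was 0.40 ± 0.13 (adjusted p = 0.0486), and leaving out RS-6, RT-1 or RT-2 ended the call, with adjusted p between 0.102 and 0.109. Ifit1 changed by 0.0033 ± 0.13 and Ifit3 by 0.23 ± 0.13 (adjusted p = 0.989 and 0.222), and their groups overlapped.

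The OAS family held 2 of the 3 genes that fell. OAS enzymes answer to double-stranded RNA by making the short oligoadenylates that activate RNase L, and Oasl1, which lacks this activity, restrains Irf7 translation in the mouse. Oasl1 ranged from 4.56 to 4.83 in RT, with a median of 4.68, and from 4.48 to 5.41 in RS, with a median of 5.21. RS-1 lay below all RT mice, and the other 5 RS mice lay above them. The change was −0.40 ± 0.13 (adjusted p = 0.0442), and it held when any 1 mouse was left out, with adjusted p of at most 0.0971. Without RS-4 and RS-6 it was −0.28 (adjusted p = 0.201).

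Oas3, the family member with the greatest affinity for long double-stranded RNA in humans, ranged from 3.28 to 3.50 in RT, with a median of 3.31, and from 3.49 to 4.17 in RS, with a median of 3.62. All RT mice but RT-1 lay below every RS mouse, and RS-4 (4.17) was the highest. The change was −0.34 ± 0.11 (adjusted p = 0.0457), and it was −0.21 (adjusted p = 0.112) after cyclic loess and −0.20 (adjusted p = 0.161) without RS-4 and RS-6. Oas2 and Oasl2 changed by −0.01 and 0.07 (adjusted p = 0.962 and 0.689). Members of 1 family therefore stood on both sides of the threshold, and a test between them was not run.

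The sensors of foreign nucleic acid had 1 call of 7, downward. Zbp1, which binds left-handed nucleic acids and starts necroptosis, ranged from 3.74 to 4.10 in RT, with a median of 3.88, and from 3.95 to 4.47 in RS, with a median of 4.08. RT-4 and RT-5 overlapped the RS mice, and RS-4 and RS-5 were the highest. The change was −0.27 ± 0.10 (adjusted p = 0.0781). The call ended when RS-4, RS-5, RT-1, RT-2, RT-3 or RT-6 was left out, with adjusted p between 0.128 and 0.161. After quantile normalization the change was −0.16 (adjusted p = 0.282), and after cyclic loess it was −0.16 (adjusted p = 0.282).

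The other 6 sensor genes and regulators did not pass. Ifih1, which encodes the RNA helicase MDA5, had the largest change of all 28 uncalled genes, 0.33 ± 0.14 (adjusted p = 0.119). Ddx58, which encodes RIG-I, changed by 0.18 ± 0.091 (adjusted p = 0.181). Dhx58, Eif2ak2 (the kinase PKR), Adar (an RNA-editing enzyme) and Trim25 (a ubiquitin ligase of the RIG-I route) changed by −0.12 to 0.08. The transcription factors Irf7, Irf9 and Stat2, which carry the interferon signal to the nucleus, changed by 0.01, 0.12 and 0.12 (adjusted p between 0.309 and 0.960). Usp18, which strips ISG15 from proteins and damps the type I receptor, changed by 0.19 ± 0.081 (adjusted p = 0.117).

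Mx1 and Mx2 (antiviral GTPases), Rsad2 (viperin) and Cmpk2, the kinase that supplies viperin with its substrate, did not pass either. Their changes lay between −0.09 and 0.19, with adjusted p of at least 0.202. They were dim, with mean log2 signals from 1.73 to 4.06.

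Dtx3l and Parp9 form a ubiquitin ligase complex, and in humans the genes share a promoter from which they are read in opposite directions. Dtx3l ranged from 5.08 to 5.44 in RT, with a median of 5.28, and from 4.54 to 5.09 in RS, with a median of 4.84. Of the RT mice only RT-5 lay below the highest RS mouse, RS-1. The change was 0.45 ± 0.10 (adjusted p = 0.0105), and it was 0.33 (adjusted p = 0.0508) without RS-4 and RS-6 and 0.25 (adjusted p = 0.121) with the covariate for array spread. Parp9 changed by −0.11 ± 0.089 (adjusted p = 0.390) and Parp14, a mono-ADP-ribosyltransferase, by 0.21 ± 0.099 (adjusted p = 0.152), with overlap in both. The difference between Dtx3l and Parp9 was not tested.

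Of the remaining genes, 4 of 7 rose. Lgals3bp encodes a secreted glycoprotein that binds galectins and matrix. It ranged from 5.93 to 6.56 in RT, with a median of 6.10, and from 4.94 to 5.82 in RS, with a median of 5.64. The groups did not overlap, RT-1 was the highest, and RS-4 and RS-6 were the lowest. The change was 0.70 ± 0.15 (adjusted p = 0.00849), or 1.62 times the RS signal, and it was 0.46 (adjusted p = 0.0262) without RS-4 and RS-6 and 0.38 (adjusted p = 0.117) with the covariate for array spread.

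Samd9l, an antiviral factor that also restrains myeloid growth, ranged from 4.78 to 5.48 in RT, with a median of 5.09, and from 4.23 to 4.94 in RS, with a median of 4.65. In RT, 4 mice lay above all RS mice, and RT-4 and RT-5 overlapped them. The change was 0.47 ± 0.13 (adjusted p = 0.0252), and it was 0.34 (adjusted p = 0.118) without RS-4 and RS-6.

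Trim30a, which limits NF-κB activation in the mouse, and Ifi27, which encodes a small hydrophobic protein of internal membranes, passed by little. Trim30a ranged from 5.07 to 5.48 in RT, with a median of 5.19, and from 4.59 to 5.23 in RS, with a median of 4.95. Its change was 0.31 ± 0.11 (adjusted p = 0.0696), with wide overlap. The call ended without RS-2, RS-4, RS-6, RT-3, RT-4 or RT-6, with adjusted p between 0.107 and 0.146.

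Ifi27 ranged from 6.76 to 6.94 in RT, with a median of 6.92, and from 6.41 to 6.81 in RS, with a median of 6.73. RT-6 was the only RT mouse within the RS range, and RS-2 was far below the other RS mice. The change was 0.21 ± 0.080 (adjusted p = 0.0875). It fell short of the threshold without RS-2, RS-4, RS-5 or RS-6 and without any of RT-1 to RT-5, with adjusted p between 0.106 and 0.167. After quantile normalization the change was 0.07 (adjusted p = 0.594), and after cyclic loess it was 0.07 (adjusted p = 0.602). Ifi35, Xaf1 and Tap1, a subunit of the transporter that loads peptides for class I antigen presentation, changed by 0.19, 0.17 and −0.0017, with no call.

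The interferon-inducible GTPases, which attack the vacuoles of intracellular pathogens and answer strongly to interferon gamma, had no call among 4 genes, and here the RS mice differed more among themselves than the groups did. Iigp1 ranged from 4.54 to 5.35 in RT and from 3.83 (RS-6) to 6.49 (RS-5) in RS, with SDs of 0.31 and 0.94. Gbp3 ranged from 4.53 to 5.15 in RT and from 4.09 to 5.48 in RS. Gbp5 ranged from 3.80 to 4.16 in RT and from 4.04 to 4.88 in RS. RS-5 was the highest of the 12 mice in these 3 genes. Irgm1 ranged from 4.69 to 5.14 in RT and from 4.12 to 5.16 in RS, where RS-1 was the highest.

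RS-6 was the lowest RS mouse in all 4 GTPases. Their changes lay between −0.27 (Gbp5, adjusted p = 0.154) and 0.23 (Irgm1, adjusted p = 0.331). Of 5 further guanylate-binding protein genes that were measured, Gbp4 and Gbp7 were also highest among RS mice in RS-5, while Gbp9 and Gbp2b were highest in RS-1 and Gbp8 in RS-6. In the 3 IFITM genes every RS mouse, RS-5 among them, lay below every RT mouse.

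**Figure D3:**
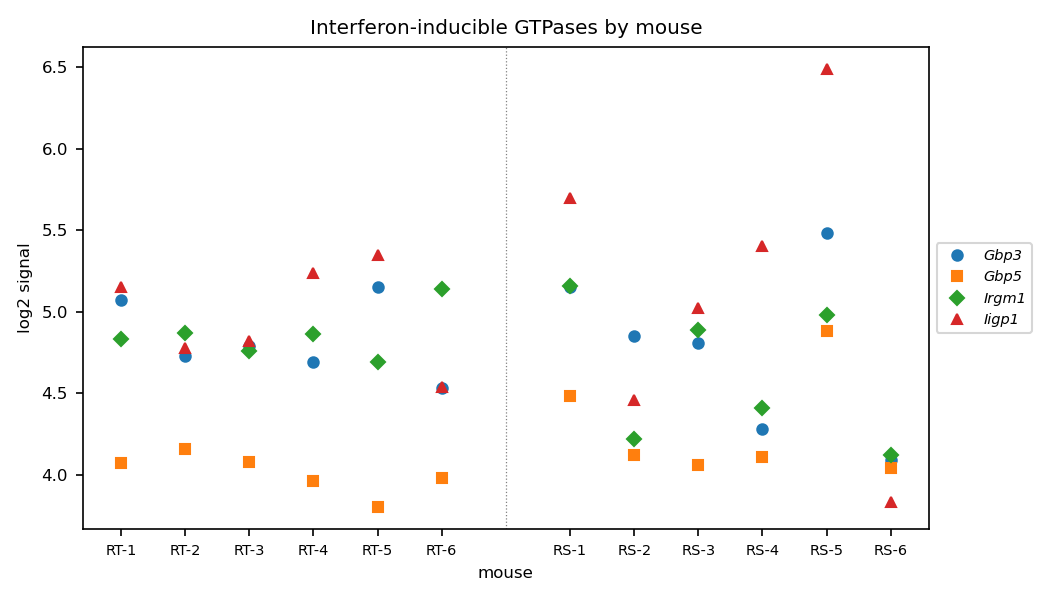
Log2 signal (y axis) of Gbp3, Gbp5, Irgm1 and Iigp1 in each of the 6 RT mice and the 6 RS mice (x axis). RS-5 was the highest of all mice for Iigp1 (6.49), Gbp3 (5.48) and Gbp5 (4.88), and RS-6 was the lowest RS mouse for all 4 genes.

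Single mice recurred at the ends of the range. RS-6 was the lowest of the 12 mice in 20 of the 40 interferon-stimulated genes, beside 17.8% of all genes. RS-4 was the highest in 6 of the 40, beside 23.8% of all genes. RS-6 was the lowest in 8 of the 9 genes that rose, and RS-4 was the highest in all 3 that fell. The calls were made from these same values, so these counts are not independent of them, and the shares over all called genes were not computed. RT-1 was the highest in 10 of the 40 genes, beside 8.67% of all genes. The SD was larger in RS than in RT in 32 of the 40 genes, beside 69.8% of all genes.

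Other interferon-stimulated genes, 62 further genes of which 48 were measured, had 9 genes higher in RT, 1 lower and a median change of 0.09. Over all genes, 13.9% were called higher and 10.7% lower. The greatest rises were those of Ly6e, 0.79 ± 0.19, Ifi205, 0.70 ± 0.20, and B2m, 0.66 ± 0.25 (adjusted p = 0.0124, 0.0274 and 0.0772). Ly6e encodes a membrane protein that blocks coronavirus entry, Ifi205 a nuclear protein related to the DNA sensor AIM2, and B2m the light chain of class I antigen-presenting molecules. Nlrc5, the activator of class I genes, fell by 0.28 on the log2 scale (adjusted p = 0.0229), and no call was made when the mean of its several transcript clusters was used. Cxcl9 and Cxcl10, chemokines that interferon gamma induces, changed by −0.35 ± 0.16 and 0.08 ± 0.11 (adjusted p = 0.136 and 0.637). With RS-4 and RS-6 left out, 4 of the 48 were higher and 2 lower.

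No interferon gene was called higher, and the list was dim, with mean log2 signals from 1.52 to 5.82 and a median of 3.39. Of all genes with a mean log2 signal under 4, 2.65% were called higher and 13.25% lower. Between 4 and 6, where Ifnl2 lay with a mean of 5.82, the shares were 14.7% and 13.5%. Without a detection call, it cannot be said whether the dim ligands were expressed. Of 10 measured ligands, 0 were higher and 2 lower, Ifnl2 by 0.48 and Ifnk by 0.20 on the log2 scale (adjusted p = 0.0155 and 0.0893), while Ifnb1 and Ifng changed by −0.10 and −0.05 (adjusted p = 0.582 and 0.698). Of 17 measured genes for receptors, kinases and their regulators, 9 were higher and 1 lower, beside 13.9% and 10.7% of all genes. Their median change was 0.25, and their mean log2 signals ran from 3.53 to 8.70. At a mean log2 signal of 6 or more, 29.6% of all genes were called higher and 2.53% lower. Ifngr1 ranged from 6.89 to 7.32 in RT and from 6.13 to 6.83 in RS, with a change of 0.60 ± 0.11 (adjusted p = 0.00403). Ifnar2 ranged from 5.75 to 6.28 in RT and from 5.07 to 5.83 in RS, with a change of 0.58 ± 0.14 (adjusted p = 0.0121). Receptor chains for type I interferons and for interferon gamma were therefore among the genes that rose. Ifnlr1, a chain of the lambda receptor with a mean log2 signal of 3.53, was the 1 that fell (−0.38 ± 0.11, adjusted p = 0.0297). Il10rb, the other chain of that receptor, rose (0.47 ± 0.12, adjusted p = 0.0153).

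The negative regulators Socs1 and Socs3, which interferon and cytokine signals induce, changed by −0.15 and −0.09 (adjusted p = 0.315 and 0.527). Of 18 listed genes of the sensing pathway upstream of interferon, 14 were measured, and Mb21d1 and Tmem173 were not among them. The measured genes also include Tlr4 and shared signaling genes such as Myd88 and Rela. Of these 14 genes, 3 rose, Tlr7 (0.59 ± 0.11), Tlr3 and the adaptor Mavs, and 0 fell. Tlr7 and Tlr3 were dim, with mean log2 signals of 2.70 and 3.59. The shares over all genes were 13.9% higher and 10.7% lower. With RS-4 and RS-6 left out, 7 of the 17 receptor and kinase genes and 1 of the 14 sensing genes were called higher and 0 lower, so Ifnlr1 lost its call. With the covariate for array spread, 2 and 1 were higher and 0 lower.

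Markers of macrophages, fibroblasts and endothelial cells had rises and no falls. Of 14 macrophage markers, 11 were higher in RT and 0 lower, with a median change of 0.80. The mean log2 signal of the 14 macrophage markers lay between 5.29 and 5.63 in RT and between 4.68 and 5.15 in RS, without overlap. Of 12 fibroblast and matrix markers, 11 were higher and 0 lower (mean 8.31 to 8.71 in RT and 7.14 to 8.28 in RS). Of 12 endothelial markers, 7 were higher and 0 lower (mean 6.77 to 7.12 in RT and 6.32 to 6.75 in RS). Over all genes, 13.9% were called higher and 10.7% lower, and at a mean log2 signal of 6 or more 29.6% and 2.53%. The median signal of the list was in that bright range for fibroblast and matrix (8.10) and endothelial markers (6.64), and was 5.16 for macrophage markers.

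By comparison, the mean of the 40 interferon-stimulated genes lay between 4.75 and 4.97 in RT and between 4.49 and 4.87 in RS, with overlap. The part of these cells in the changes of the interferon-stimulated genes was not tested, and in whole muscle more cells of a type and more RNA per cell cannot be told apart. Without RS-4 and RS-6, 10 macrophage, 9 fibroblast and 4 endothelial markers were still called higher, and with the covariate for array spread 7, 2 and 2 were, with 0 lower in both settings.

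The other marker lists had few calls or none. Of 12 skeletal muscle markers, among them Acta1, Ckm and Myh4, 0 were called, each was bright, with a mean log2 signal of at least 11.3, and the mean of the list lay between 12.22 and 12.29 in RT and between 12.05 and 12.31 in RS. Of 12 lymphocyte markers, 0 were higher and 2 lower, Cd3e and Cd3g, and their mean lay between 2.97 and 3.13 in RT and between 3.07 and 3.37 in RS. Among all genes with a mean log2 signal under 4, 2.65% were called higher and 13.25% lower. Between 4 and 6, where Cd3e lay with a mean of 4.35, the shares were 14.7% and 13.5%. Of 10 neutrophil markers, 0 were called (mean 2.89 to 3.07 in RT and 2.93 to 3.16 in RS). Of 4 measured markers of plasmacytoid dendritic cells, the main source of interferon alpha, Tcf4 alone was higher, a gene that other cells also express, while Siglech changed by 0.17 (adjusted p = 0.146). The mean of these 4 lay between 6.24 and 6.36 in RT and between 5.98 and 6.37 in RS, where RS-1 alone was not below every RT mouse, and their median change was 0.23. Cox6a2, 1 of the 4, had a mean log2 signal of 10.98, close to the muscle markers, beside 2.94 to 7.2 for the others. The mean and the median of this list are therefore no measure of plasmacytoid dendritic cells alone. No marker was listed at 0, since the lowest value in the whole table was 0.53.

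**Figure D4:**
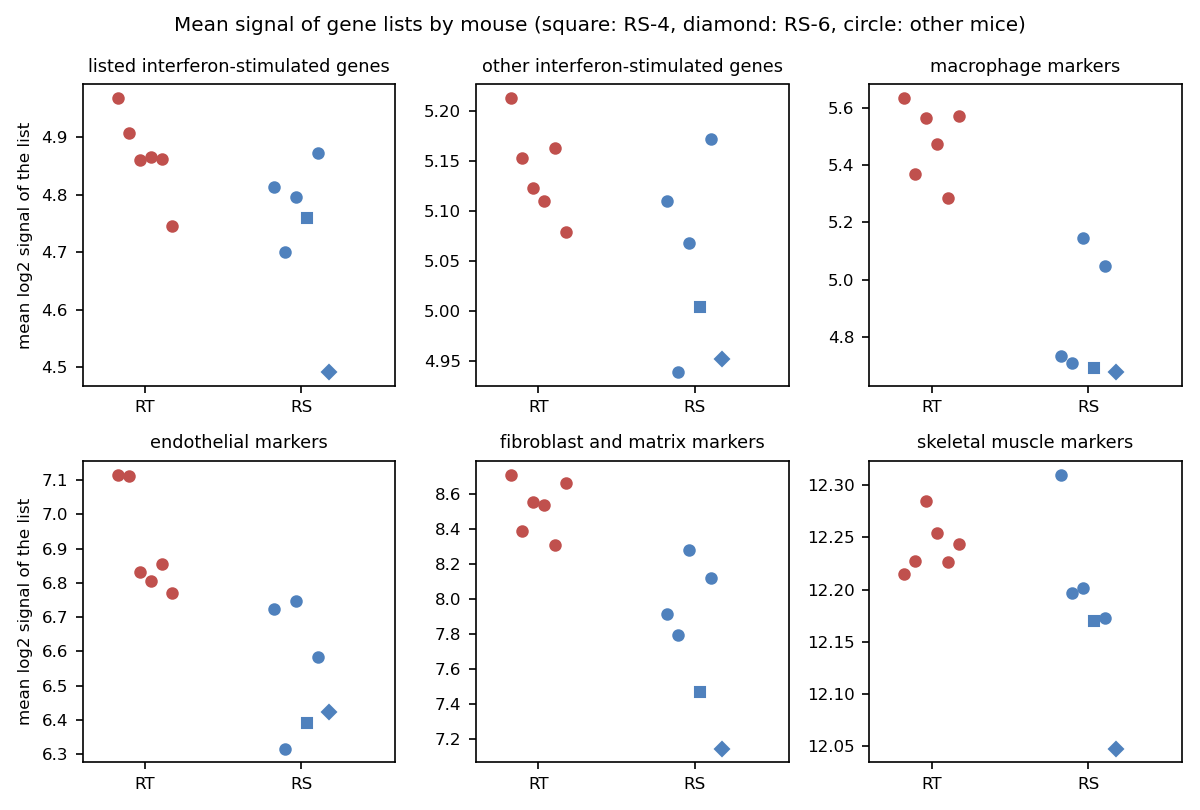
Mean log2 signal (y axis, own scale in each panel) over the genes of a list in each mouse of RT and RS, with a square for RS-4 and a diamond for RS-6. The macrophage, endothelial and fibroblast means of all RT mice lie above those of all RS mice, while the means of both interferon-stimulated lists and of the muscle markers overlap.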

How the data were processed

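Total RNA of the gastrocnemius (250 ng) was labelled and hybridised to 1 array per mouse. The authors deposited log2 signals of 28944 transcript clusters, which they had background-corrected, summarised and normalized by robust multi-array average (RMA). Their methods name the plain and the SST variant in different places, and the genome build is not given in the sources used here. The table held 0 columns of other samples and no counts or background, so precision rests on the number of arrays.

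RT was compared with RS in R 4.3.3 with lmFit and eBayes of limma 3.58.1, two-sided, without covariates, over all transcript clusters, with Benjamini-Hochberg adjustment. Each adjusted p in the text comes from that fit or a named alternative of it. A gene with several single-symbol transcript clusters was represented by the brightest on average. The 44 genes and the other lists, from textbook knowledge, were chosen with earlier results of these data known. Every gene was accounted for. Full values were given for called genes with the 12 largest changes, and ranges for the rest. The fit was tested on simulated data. Alternatives changed the normalization, the dim filter, the test, the mice, the covariates or the threshold. Promoter windows were matched by symbol. The labels number mice but name no litter or cage for single mice, so p-values measure the spread between mice of 1 shared fecal source per group.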

Additional observations from a re-analysis of the deposited data

Results flagged for a closer look

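In 6 of 80 groups (2 for each of the 40 genes), the most extreme mouse was separated from the other 5 by a gap larger, relative to the range of the group, than Dixon's criterion allows. Chance marks about 1 in 20 groups in this way. In RT, Ifitm2 was highest in RT-1, at 8.18, with the other mice between 7.88 and 7.99, and Ifi27 was lowest in RT-6, at 6.76, with the others between 6.90 and 6.94. In RS, Ifi27 was lowest in RS-2, at 6.41, with the others between 6.70 and 6.81, and Irf7 was lowest in RS-5, at 4.87, with the others between 5.12 and 5.24. RS-6 was the low mouse of RS for Eif2ak2, at 3.57 beside 4.21 to 4.53, and for Ifit2, at 3.06 beside 3.48 to 3.71.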

How the results depend on the processing

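No called interferon-stimulated gene changed direction under any alternative. Without the array spread as a covariate and without median centering, the number called higher stayed between 6 and 11. It was 2 with the spread covariate and 17 after centering each array on its median. The number called lower was 1 after a further quantile normalization, 1 after cyclic loess, 0 with the spread covariate and 0 without both RS-4 and RS-6. Leaving out 1 mouse at a time gave 7 to 10 higher and 2 to 3 lower. The median change lay between 0.0757 (without RT-1) and 0.20 (centering).

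For the other interferon-stimulated genes, the number called higher was 0 with the spread covariate, 14 after centering and 4 without both RS-4 and RS-6. The number called lower was 2 with array weights, 2 with the replicate block, 0 with the spread covariate, 2 without both RS-4 and RS-6, 0 with the mean over all transcript clusters of a gene, and 1 to 2 with 1 mouse left out (2 without RS-2, RS-4 or RS-6).

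Same-numbered RT and RS mice did not deviate together, with correlations from −0.24 to 0.11. These correlations gave no sign of a pairing by number, but they cannot exclude one. The replicate block gave 9 interferon-stimulated genes higher and 3 lower, and 2873 transcript clusters higher and 3174 lower in all, beside 3445 and 3764 without it. Why these settings move the counts was not tested. With the threshold on the adjusted p at 0.05 in place of 0.1, 7 genes were higher and 2 lower. Oas3 was among the transcript clusters that the filter on dim signals removes and has no value with it. No detection call was used.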
